A study of Homo sapiens with 3 samples.

Results

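Dense groups of p68-binding sites in human pluripotent stem cells NTERA2 are described here from the list of sites obtained by ChIP-seq of the RNA helicase p68. Sites on a chromosome were joined when the gap between their edges was at most 10 kb, and groups of 5 or more sites were kept. This gave 163 groups with 1221 of the 14131 p68 sites (8.64%, 95% Wilson interval 8.19 to 9.12%). The groups were compared with the 12910 p68 sites outside them and with the 7899 sites of the long non-coding RNA SRA, mapped in the same cells by ChIRP-seq. All samples were untreated cells of the NTERA2 line, grown in DMEM with 10% FBS, and input chromatin was not analysed here. Each assay had 3 biological replicates, whose peaks the authors intersected into 1 list of positions on hg19 without a score or read count. Depth and spread between replicates are therefore unknown, and all intervals cover counting error only. They take neighbouring p68 sites as separate counts, although 1 SRA site can lie beside 2 of them. Intervals for members of groups may therefore be too narrow. The groups were chosen by the spacing of the p68 sites, so that their number, span, spacing and widths are descriptions, and no difference given here was tested.

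NTERA2 is a human embryonal carcinoma line that shares many properties with embryonic stem cells. p68, the product of DDX5, is a DEAD box helicase that unwinds RNA, takes part in RNA processing and is recruited as a coactivator by several transcription factors. ChIP-seq reports chromatin crosslinked to p68, whether the protein meets DNA directly or through RNA and other proteins. SRA is an RNA partner of p68, and in ChIRP-seq biotinylated oligonucleotides that pair with SRA recover the chromatin around it. A site is a stretch of enriched reads called as 1 peak, and a dense group is thus a region where such peaks follow each other closely. Genes and DNA sequences at these positions are not given, because a genome or annotation of hg19 was not used here.

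Most p68 sites stood alone. Of the 14131 sites, 8770 (62.1%) had no other site within 10 kb. The groups of 5 or more were mostly small, with 55 groups of 5 sites, 35 of 6, 19 of 7 and 19 of 8, a median of 6 (quartiles 5 and 8), and 27 groups of at least 10 sites. The groups spanned a median of 31530 bp (quartiles 23236 and 46724 bp), from 12972 to 119701 bp. Together they spanned 6.29 Mb, of which p68 sites covered 2.86 Mb (45.5%). They held 13.9% of all bases in p68 sites, a larger share than their 8.64% of the sites, since sites in groups were wider.

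The group with the most p68 sites lay at chr1:28866568-28978629, with 25 sites that covered 54.0% of 112062 bp. The next was at chr7:6554629-6662998, where 20 narrow sites covered 25.5% of 108370 bp. A group at chr1:31538771-31646555 had 19 sites and 64.5% of its span covered, and it contained the widest p68 site of all groups (11893 bp, chr1:31553446-31565338). A group at chr1:27243475-27324191 had 18 sites and 35.2% covered, and a group at chr1:33153838-33255199 had 17 sites and 33.0% covered. Another group of 17 sites, at chr12:3000529-3101577, was slightly shorter (101049 against 101362 bp), had 64.6% of its span covered and lay 120598 bp from the nearest SRA site. Groups with nearly equal numbers of sites thus differed widely in how much of the span the sites filled. The same was seen over all groups, where the covered share ran from 18.3% to 82.3% (median 42.6%).

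**Figure D1:**
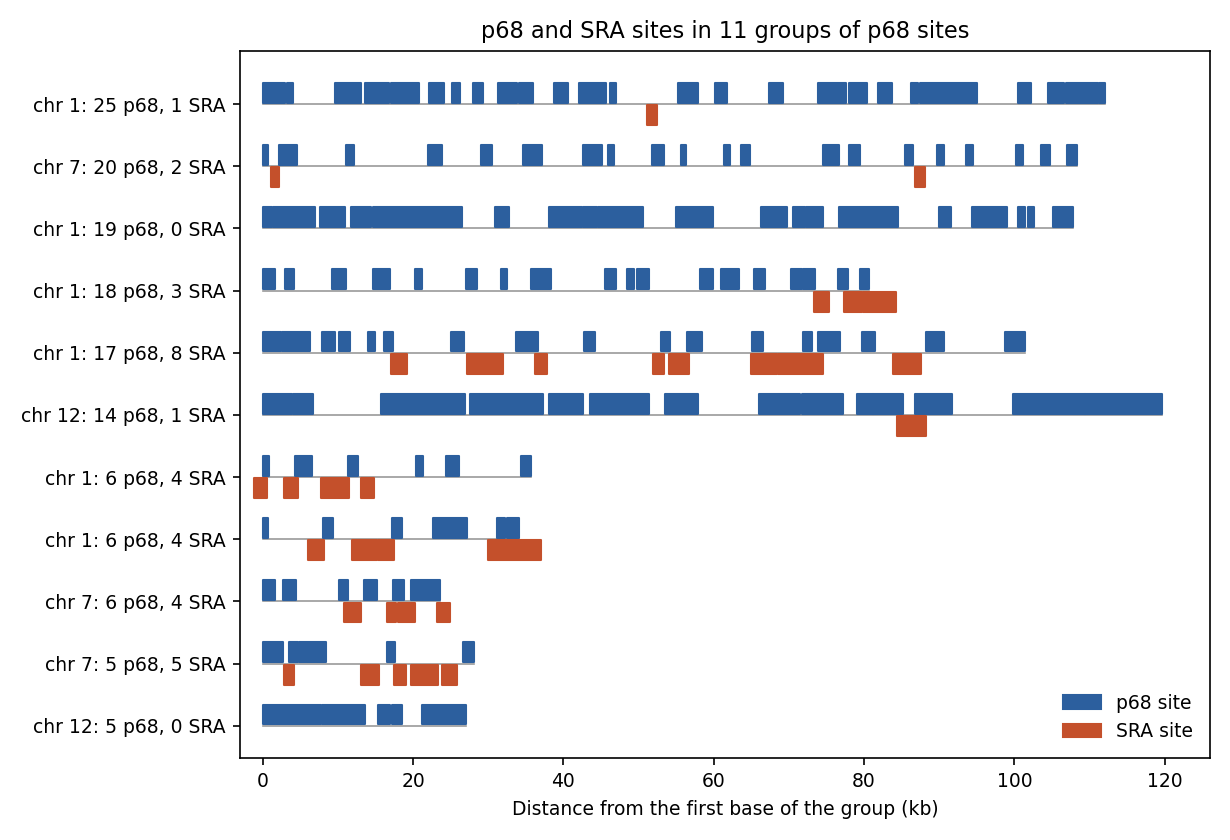
p68 sites (blue, upper bars) and SRA sites (red, lower bars) in 11 groups, drawn to scale by distance in kb from the first base of the group. They are the 5 groups with most p68 sites (of 2 groups with 17, the longer on chromosome 1), the longest, the 4 others with at least 4 SRA sites and, last, the most covered. The group of 25 p68 sites had 1 SRA site, whereas the group of 17 on chromosome 1 had 8.

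The most covered groups were found on chromosomes 12 and 1. In the group at chr12:7951766-7978761, 5 sites covered 82.3% of 26996 bp, and in the group at chr12:32805681-32832292, 5 sites covered 78.5% of 26612 bp. The third, at chr1:151175935-151193189, had 78.0% of 17255 bp covered by 5 sites. The longest group, at chr12:7805092-7924792, had 14 sites in 119701 bp. Their median width was 5188 bp and the median gap between them was 837 bp. Its site of 11169 bp (chr12:7820866-7832034) was the third widest in any group, after one of 11536 bp at chr12:31523734-31535269. None of these 3 widest sites had an SRA site within 500 bp. Over all members the share was only 9.25%, so 3 sites are too few to describe wide sites. The longest and the most covered group followed each other on chromosome 12, only 26973 bp apart.

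Inside the groups, the 1058 gaps between neighbouring p68 sites had a median of 2554 bp (quartiles 805 and 5343 bp). Gaps under 500 bp made up 19.5% (206), and 53 were under 100 bp, so that some neighbours were separated by less than a single chromatin fragment. When p68 sites with gaps of at most 500 bp were first fused into 1 site, 120 groups of 5 or more remained, with 852 of 13622 fused sites (6.25%). On the outside, the next p68 site was a median of 19360 bp away (quartiles 13358 and 32140 bp), and for 116 of the 326 group ends it was at most 15 kb away. The limit of 10 kb therefore often cut through a longer series of sites.

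At the limit of 5 sites, members and non-members looked alike. The 146 groups of 4 sites, which were left out, had a median site width of 1496 bp (quartiles 1092 and 2164 bp) and 38.2% of the span covered. The 55 groups of 5 had 1645 bp (1182 and 2310 bp) and 40.9%. An SRA site lay within 500 bp of 10.8% of the p68 sites in groups of 4 (95% Wilson interval 8.52 to 13.6%) and of 9.45% in groups of 5 (6.53 to 13.5%). At the limit of 10 kb, 13 gaps inside groups were longer than 9500 bp, and 25 gaps to the next site outside were at most 11000 bp.

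The groups were concentrated on a few chromosomes. Chromosome 1 held 72 groups with 570 sites, which was 20.9% of its p68 sites (95% Wilson interval 19.5 to 22.5%). Chromosome 12 held 28 groups with 226 sites (16.4%, 14.6 to 18.5%), chromosome 7 held 22 groups with 171 sites (12.4%, 10.7 to 14.2%) and chromosome 2 held 18 groups with 121 sites (9.17%, 7.73 to 10.8%). These 4 chromosomes carried 89.1% of the sites in groups, against 48.1% of all p68 sites. Chromosome 21, with few p68 sites (370), had 47 of them in 8 groups (12.7%, 9.69 to 16.5%). The others with groups were chromosomes 11, 3, 19 and 16, where 31, 26, 18 and 11 sites lay in groups. The remaining 15 of chromosomes 1 to 22, X and Y had no group, although they held 3829 p68 sites. On chromosome 9, with 663 p68 sites, a count of 0 allows a share in groups of up to 0.452% when the limit is set at 3 counts of the total (the Wilson upper bound was 0.576%).

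**Figure D2:**
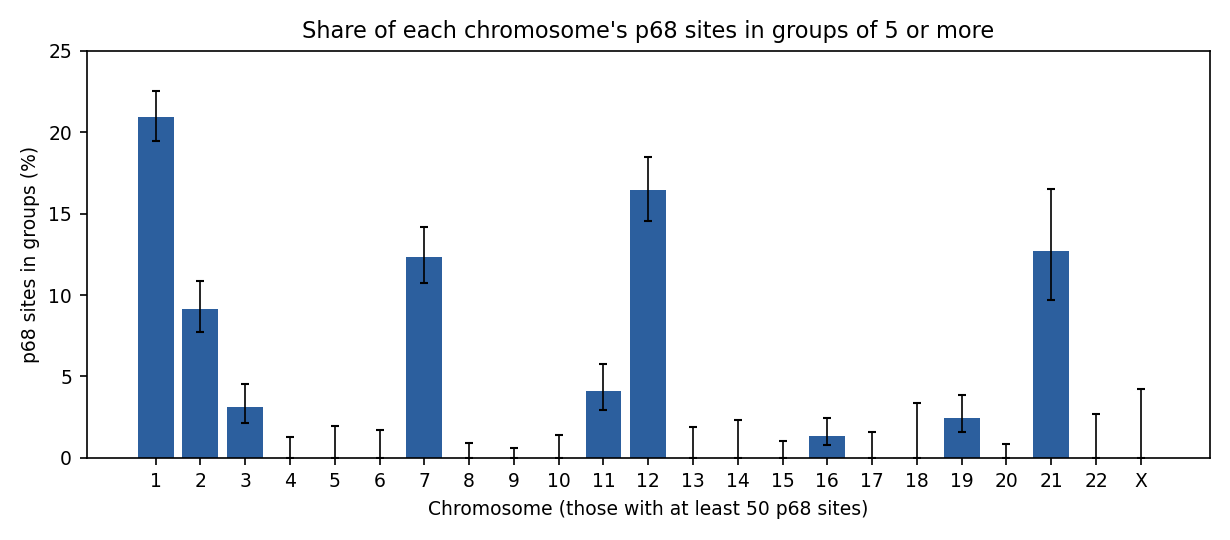
Percent of the p68 sites of each chromosome that lay in groups of 5 or more, for chromosomes with at least 50 p68 sites, with 95% Wilson intervals. Chromosomes 1, 12, 21 and 7 stand above 12%, and 14 of the chromosomes shown are at 0.

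Within these chromosomes the groups again crowded into short regions. Of 310 windows of 10 Mb with a p68 site, 42 held a group. The 5 windows with the most members held 693 sites in groups (56.8%) but 12.6% of all p68 sites. They were, in order, 20 to 30 Mb and 30 to 40 Mb of chromosome 1, the first 10 Mb of chromosomes 7 and 12, and 20 to 30 Mb of chromosome 2. On the same chromosome, the next group began within 1 Mb of the previous one in 100 of 154 cases (64.9%) and within 100 kb in 46. Groups at most 1 Mb apart were therefore put together into 63 stretches, a definition chosen after the positions had been seen. The 6 stretches with most sites took in 66 groups with 594 sites (48.6% of those in groups) within 14.4 Mb.

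The leading stretch, chr1:26642094-29205501, had 18 groups with 188 sites in 2.56 Mb. Of all p68 sites between its ends, 65.3% were in groups. On the same arm, the stretch chr1:31538771-33255199 had 10 groups with 99 sites, and chr1:37907900-41446281 had 8 groups with 56 sites. The stretch on chromosome 7, chr7:4639855-6662998, had 12 groups with 106 sites in 2.02 Mb. On chromosome 12, 8 groups with 73 sites lay in chr12:6647941-8402878 and a further 5 groups with 51 sites in chr12:31485290-32832292. The stretch on chromosome 2, chr2:25132883-27982903, had 10 groups with 72 sites. Densities of p68 sites over the whole length of these 7 stretches ran from 47.5 to 112 per Mb. Input chromatin, read depth and copy number along these regions were not analysed here.

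Sites in groups were wider than other p68 sites. Their median width was 1869 bp (quartiles 1289 and 2848 bp, n = 1221), against 1150 bp (934 and 1563 bp, n = 12910) outside groups, a ratio of 1.63. Width went up with the size of the group. Sites standing alone had a median of 1103 bp, pairs 1220 bp, groups of 3 to 4 sites 1416 bp, groups of 5 to 7 sites 1710 bp and groups of 8 or more 2135 bp. Of the 141 widest p68 sites (1% of the list, at least 5084 bp), 74 lay in groups (52.5%, 95% Wilson interval 44.3 to 60.5%). Wide sites also shorten the gaps beside them, so width is not independent of the rule that chose the groups.

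**Figure D3:**
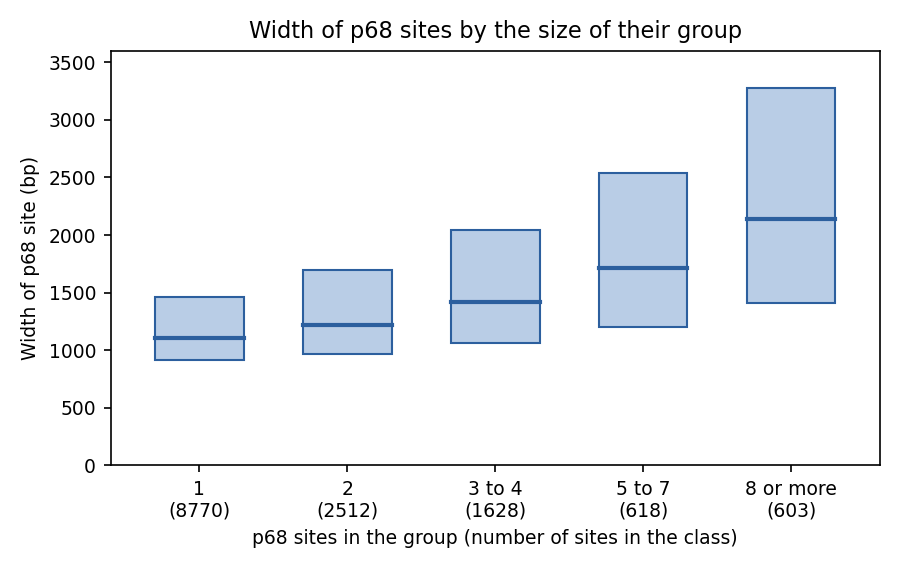
Width in bp of p68 sites by the number of sites in their group, with the number of sites of each class in parentheses. Boxes run from the lower to the upper quartile and lines mark the median, which goes from 1103 bp for sites alone to 2135 bp in groups of 8 or more.

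Much of this difference was shared by the surroundings of the groups. p68 sites that lay between groups of the same stretch, but in none of them, had a median width of 1810 bp (quartiles 1249 and 2635 bp, n = 800). The 1869 bp of all members is close to this, but it takes in the 35 stretches with a single group, which have no such sites. Within chr1:26642094-29205501, members had a median of 2056 bp and the other sites 1905.5 bp. In chr7:4639855-6662998 the medians were 1465 and 1263 bp. In chr12:6647941-8402878 the order was reversed, with 2632 and 2876.5 bp. Outside groups, sites of the 10 Mb windows with a group had 1315 bp, and sites of windows without one had 1074 bp. Within windows holding at least 20 members, the ratio of medians was above 1 in 10 of 12, and ran from 0.86 to 2.13. The ends of the groups resembled their inner parts. The 326 end sites had a median of 1792 bp (quartiles 1249 and 2671 bp) and the 895 sites with a neighbour on both sides 1911 bp (1316 and 2896 bp). The widest site of a group was an end site in 49 of 163 groups (30.1%), and end sites made up 26.7% of all members.

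The groups also differed in form between chromosomes. On chromosome 12 the members had a median width of 2720 bp (quartiles 1604 and 4364 bp), and a median of 51.1% of the span was covered (37.8 and 65.3%). On chromosome 7 the median width was 1411 bp (1132 and 1962 bp) and 38.0% was covered (31.4 and 49.1%). Chromosome 1 lay between them, with 1994 bp and 43.6%. Median gaps differed less, at 1984 bp on chromosome 12, 2504 bp on chromosome 7 and 2626 bp on chromosome 1. On chromosomes 11 and 16 the members were not wider than the p68 sites outside groups (1021 against 1094 bp and 922 against 1119 bp), with 31 and 11 sites in groups. Median widths were larger in groups on the other 7 chromosomes that had any.

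To see whether SRA accompanies dense p68 binding, SRA sites were counted beside the members, since SRA played no part in choosing them. An SRA site lay within 500 bp of 113 of the 1221 members, which is 9.25% (95% Wilson interval 7.75 to 11.01%). Over all p68 sites the share was 6.55%, and outside groups it was 6.30% (5.89 to 6.73%). Thus the pooled share was 1.47 times as high in groups as outside. The share did not follow group size throughout. It was 5.17% for sites alone, 8.12% for pairs, 9.58% in groups of 3 to 4, 11.3% (9.06 to 14.1%) in groups of 5 to 7 and 7.13% (5.34 to 9.47%) in groups of 8 or more. Overlap by at least 1 bp was found for 7.29% of members (5.09% of all p68 sites), and 1.97% had their midpoint inside an SRA site (1.63% of all).

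Within chromosomes the difference went both ways. The share with SRA was higher in groups on 3 of the 9 chromosomes that had groups and lower on 6. On chromosome 1, which is rich in SRA sites, it was 11.9% in groups (68 of 570, 95% Wilson interval 9.52 to 14.8%) and 15.1% outside (13.6 to 16.6%). On chromosome 7 it was 12.9% in groups (22 of 171, 8.65 to 18.7%) and 4.53% outside (3.50 to 5.86%). Of these 22 members, 20 lay in the first 10 Mb of chromosome 7. There 20 of 121 members and 24 of 217 other p68 sites had SRA. On chromosome 12 the share was 5.31% and 4.26%, and on chromosome 2 it was 2.48% and 3.25%, with overlapping intervals. Had the members of each chromosome carried SRA as often as its other p68 sites, 117.7 of them would have done so, and 113 did, a ratio of 0.96. With the same reckoning in windows of 10 Mb, the number was 124.8 and the ratio 0.91. These ratios depended on chromosome 1, which held 570 of the 1221 members, and on chromosome 7. Without chromosome 1, 45 members had SRA against 31.9 by the shares of their chromosomes (ratio 1.41) and 34.1 by those of their windows (1.32). Of these 45, 22 were on chromosome 7, so the ratio of 1.41 leans on chromosome 7 and does not describe the remaining chromosomes in general. Without chromosome 7 the numbers by chromosome were 91 and 109.9 (0.83).

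**Figure D4:**
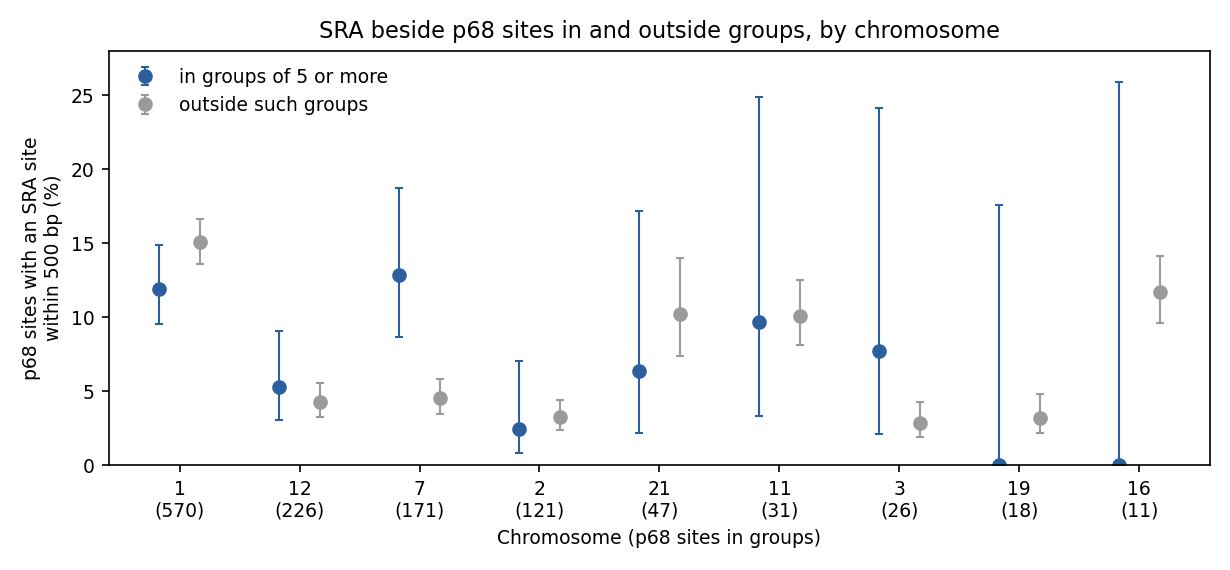
Share (%) of p68 sites that had SRA within 500 bp, in groups (blue) and outside them (grey), for the 9 chromosomes with groups, with 95% Wilson intervals and the number of members in parentheses. On chromosome 7 the interval in groups lies above the one outside, and on the other 8 chromosomes the intervals overlap. The intervals take neighbouring p68 sites as separate counts and may be too narrow. Of the 22 members with SRA on chromosome 7, 20 lay in its first 10 Mb, where 24 of 217 other p68 sites also had SRA.

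Measured over the whole spans of all groups together, SRA was about as dense inside the groups as beside them. There were 100 SRA midpoints in 6.29 Mb of spans, or 15.9 per Mb (95% exact Poisson interval 12.9 to 19.3). In the 10 kb on either side there were 15.1 per Mb (11.1 to 20.1), between 10 and 50 kb 16.5 per Mb (14.1 to 19.2), between 50 and 200 kb 13.9 per Mb (12.6 to 15.4) and between 200 kb and 1 Mb 10.8 per Mb (10.2 to 11.5). The ratio of the density inside to that 10 to 50 kb away was 0.97, with an exact interval of 0.75 to 1.25. This near equality did not hold for every choice of groups. The ratio was 0.52 for groups of at least 8 sites and 0.68 with a joining distance of 5 kb. It was 1.13 with 20 kb and 1.35 without chromosome 1. The density of p68 sites was 194 per Mb inside, 48.8 per Mb at 10 to 50 kb and 16.5 per Mb at 200 kb to 1 Mb. The rule chose spans where p68 sites are close and leaves none in the first 10 kb. A high p68 density inside and a drop beside the groups were therefore fixed in advance. On chromosome 7 the SRA density inside was 27.9 per Mb (17.3 to 42.6), against 11.5 per Mb (6.42 to 18.9) at 10 to 50 kb. On chromosome 1 it was 20.03 per Mb (15.3 to 25.8) inside against 26.5 per Mb (21.9 to 31.9). The intervals of these pairs overlap, which by itself does not show that the densities are alike. Between 50 and 200 kb from the groups, SRA had 7.61 per Mb on chromosome 7 (4.88 to 11.3), below the interval inside, and 21.9 per Mb on chromosome 1 (19.3 to 24.9).

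**Figure D5:**
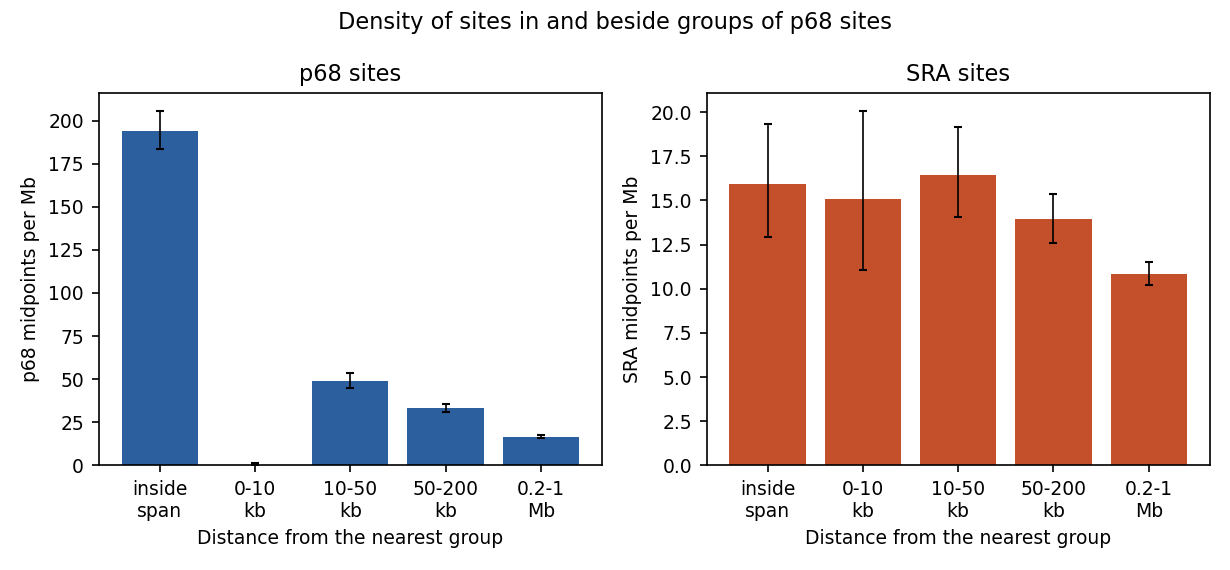
Midpoints of p68 sites (left) and SRA sites (right) per Mb, inside group spans and in 4 bands of distance from the nearest group, with 95% exact Poisson intervals. The scales differ. p68 has 194 per Mb inside and 16.5 per Mb in the last band, where the high value inside and the empty first 10 kb follow from the rule that chose the groups. SRA stays between 10.8 and 16.5 per Mb.

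An SRA site overlapped the span of 64 of the 163 groups (39.3%, 95% Wilson interval 32.1 to 46.9%), against 6.33% of all groups when single p68 sites count as groups, whose spans are far shorter. In groups of 4, just below the limit, the share was 32.9% (25.8 to 40.9%), and in groups of 5 it was 30.9% (20.3 to 44.0%). A single SRA site was present in 40 groups, 2 in 13 groups and 3 or more in 11. The group at chr1:33153838-33255199 had the most, with 8 SRA sites beside its 17 p68 sites, and 8 of its p68 sites had SRA within 500 bp. The group at chr7:5443930-5472054 had 5 SRA sites and 5 p68 sites. Groups with 4 SRA sites lay at chr1:235243281-235278982, chr1:46655545-46689643 and chr7:5590467-5614018, each with 6 p68 sites. Groups with SRA had a median of 7 p68 sites and 35223 bp, and groups without it 6 sites and 31210 bp. Of the 9 groups with at least 15 p68 sites, 6 had at most 1 SRA site. Over all 163 groups, 99 had none and 40 had 1, so this was not particular to the largest groups.

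The 99 groups without SRA were a median of 58443 bp from the nearest SRA site (quartiles 19915 and 192982 bp), and 15 groups were more than 1 Mb from any. Of these, 6 were on chromosome 7, from 65939303 onwards, where 40 p68 sites lay in such groups. A further 6 were on chromosome 2, 2 on chromosome 16 and 1 on chromosome 12. Each 10 Mb window of chromosome 7 with such a group held at most 1 SRA site. Of the p68 sites outside groups, at most 1 per window there had SRA within 500 bp. The lack of SRA was thus shared by these regions of chromosome 7. The share of all p68 sites more than 1 Mb from SRA was not counted. The stretch chr2:25132883-27982903 had 10 groups and 151 p68 sites in all but 1 SRA site. None of its 72 members had SRA within 500 bp, and a count of 0 allows up to 4.17% at 3 counts of the total (Wilson upper bound 5.07%). None of the 79 other p68 sites between its ends had SRA either. In the stretch chr7:4639855-6662998, 19 of 106 members had SRA (17.9%, 95% Wilson interval 11.8 to 26.3%), beside 9 of the 79 p68 sites there that were in no group (11.4%, 6.11 to 20.3%). In chr1:31538771-33255199 it was 17 of 99 members (17.2%, 11.01 to 25.8%) beside 8 of 50 other sites (16.0%, 8.34 to 28.5%). The leading stretch, chr1:26642094-29205501, went the other way. There 16 of 188 members had SRA (8.51%, 5.31 to 13.4%) beside 13 of 100 other sites (13.0%, 7.76 to 21.0%). Members and other p68 sites of these stretches thus had overlapping intervals. Dense p68 groups were thus found both with and without SRA.

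Where SRA sites occurred in groups, they lay mainly between p68 sites and reached into their edges. Of the 109 SRA sites that overlapped a span, 78 (71.6%, 95% Wilson interval 62.5 to 79.2%) overlapped a p68 site of the group and 94 lay within 500 bp of one. Yet only 7 of the 100 SRA midpoints inside spans fell in a p68 site (95% Wilson interval 3.43 to 13.7%), while p68 sites covered 45.5% of the spans. The overlap was short, with a median of 520 bp (quartiles 372 and 748 bp) over 96 pairs. It made up a median of 21.1% of the SRA site. A bridge between neighbouring p68 sites, with SRA overlapping both, was seen for 18 SRA sites. The other 93 midpoints lay in gaps with a median length of 5145 bp (quartiles 2649 and 7194 bp). Long gaps take in more midpoints by their length alone. SRA sites in groups had a median width of 2310 bp, and all SRA sites 2227 bp. All gaps inside groups had a median of 2554 bp, so SRA sites of this width may often reach a p68 site by size alone, which was not tested. Contact at edges was also not particular to groups. Outside them, 630 p68 sites overlapped an SRA site and 207 had their midpoint inside one, against 89 and 24 members.

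The dense groups of p68 were also set against dense groups of SRA. Joining SRA sites by the same rule gave 137 groups of 5 or more SRA sites, and 4 of them (2.92%) overlapped 4 of the 163 p68 groups (2.45%). Of all SRA sites taken 1 by 1, 1.38% overlapped the span of a p68 group, so the share of SRA groups was not below that of SRA sites. A group of sites is longer than a single site and can overlap more easily. Whether 4 shared groups are few or many for spans of this length was not tested. The shared parts were chr1:33205800-33241407 (35608 bp), chr7:5446830-5469795 (22966 bp), chr12:8378760-8398215 (19456 bp) and chr1:45248789-45259168 (10380 bp).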

How the data were processed

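Chromatin of NTERA2 was recovered with SRA probes (ChIRP-seq) or with an antibody against p68 (ChIP-seq). The authors aligned single-end 50 bp reads to hg19, kept non-duplicate reads with a mapping quality of at least 20 and ran MACS 1.4.2 for peaks (p-value thresholds 1e-04 for SRA, 1e-05 for p68). They intersected the replicates with ChIPpeakAnno and subtracted LacZ probe sites from SRA. The submitters' processing notes also name CASAVA 1.8.2. The aligner is not given in the sources used here. The deposited lists hold 3 columns (chromosome, start, end) with no score, so that sites missed in 1 replicate are absent and depth is unknown.

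Starts were counted from 1 for printing. SRA was called beside a p68 site at an edge gap of at most 500 bp. Densities used midpoints, and intervals were 95% Wilson (shares) or exact Poisson (densities). A site list of 1 per assay allowed no test between conditions. Singly described regions were, by rule, the groups with most p68 sites, longest span, most coverage and most SRA sites. The members, lists and rules were chosen with earlier results of these data known. Functions were tested on simulated data. Python 3.11.15, numpy 2.4.6, pandas 2.3.3, scipy 1.17.1 and matplotlib 3.10.9 were used.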

Additional observations from a re-analysis of the deposited data

How the results depend on the processing

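Most values followed the rule that defines a group, as they must. The 163 groups became 73 with a joining distance of 5 kb, 302 with 20 kb, 54 with at least 8 sites, 309 with at least 4, 5 when p68 sites above the median width were dropped first, and 91 without chromosome 1. The percent of p68 sites in groups (8.64%) became 3.28%, 19.1%, 4.27%, 12.8%, 0.354% and 5.71% in the same order, 6.62% with midpoints at most 10 kb apart, 7.80% without chromosome 12 and 6.25% with gaps of at most 500 bp fused. The percent of members with SRA (9.25%) became 6.48% with 5 kb, 7.13% with at least 8 sites, 6.91% without chromosome 1, 7.29% when sites had to overlap, 12.7% with gaps up to 2 kb and 1.97% for a p68 midpoint inside SRA. Its ratio to the share outside groups (1.47) turned to 0.99 with 5 kb, to 0.96 with the outside share taken within each chromosome and to 0.91 within each 10 Mb window, and moved to 1.75 with 20 kb, 1.09 with at least 8 sites and 1.23 for midpoints. With the outside share taken within each chromosome, leaving out chromosome 1 gave 1.41, chromosome 7 gave 0.83, chromosome 12 gave 0.93, chromosome 3 gave 0.95, and each other chromosome with a group between 0.96 and 0.97. The SRA density inside against 10 to 50 kb (0.97) was 0.68 with 5 kb, 0.52 with at least 8 sites but 1.35 without chromosome 1, 1.13 with 20 kb and 1.14 against 50 to 200 kb. The width ratio (1.63) was 1.51 with 20 kb, 1.83 with at least 8 sites, 1.72 without chromosome 7 and 1.42 against outside sites of windows with a group, and against those of the same stretches it was 1.03. That last value sets all members against sites that only stretches of several groups had. Fusing of gaps, the ratio of shares, and the comparisons within chromosomes, windows and stretches were chosen after seeing the data. No paired analysis was possible because each assay has 1 list without replicate columns, and for the same reason no replicate was left out in turn. Gene positions and sequences need hg19 and were not given.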
